A study of Mus musculus with 23 samples.

Results

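Collagen chain genes were defined as all genes whose symbol consists of Col, a type number, the letter a and a chain number. The rule found 42 of 20628 genes in tibialis anterior muscle, 43 of 26702 in subcutaneous white fat and 44 of 25623 in hypothalamus, and 44 of 29894 genes over the 3 tissues. C57BL/6 is an inbred strain, and its mice were treated for 8 weeks with oxaliplatin, a platinum drug that crosslinks DNA, or with vehicle before RNA was sequenced. Each animal received oxaliplatin at 10 mg/kg or vehicle alone, and no other allele or agent is named for either arm. Muscle gave 5 oxaliplatin and 4 vehicle libraries, fat 4 and 3, and hypothalamus 4 and 3, so that 23 libraries were compared within tissues. The sources name neither sex nor age. Whole tissue was sequenced, so fewer cells of a type and less RNA per cell cannot be told apart in any value below.

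Collagens are secreted proteins in which 3 alpha chains wind into a triple helix. Fibrillar collagens (types I, II, III, V, XI, XXIV and XXVII) form the tensile fibrils of connective tissue and come mostly from fibroblasts, tendon cells and cartilage cells. Type IV collagen forms the sheet-like network of basement membranes around vessels, muscle fibres and fat cells, and types XV and XVIII are bound to that network. The other collagens include type VI, which forms beaded filaments next to basement membranes, collagens that sit on the surface of fibrils, short network-forming chains, transmembrane collagens and the type VII chain of anchoring fibrils in skin. The tables held up to 11 fibrillar, 8 basement membrane and 25 other chains.

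Levels are given in normalised CPM, counts scaled to the same library total, and a change is the log2 of oxaliplatin over vehicle, with its SE. A gene was called when its edgeR quasi-likelihood p, adjusted over all genes tested in the tissue, was under 0.05. After a filter on low counts, 33 chains were tested in muscle, 38 in fat and 42 in hypothalamus. The filter keeps a gene with enough counts in as many libraries, of either arm, as the smaller arm holds, so a gene may pass through 1 arm alone, and the tested chains are not all members. The chains that were not tested reached at most 0.356 CPM in oxaliplatin and 0.349 CPM in vehicle muscle (Col2a1, Col4a6, Col6a5, Col9a2, Col10a1, Col13a1, Col17a1, Col25a1 and Col26a1), and at most 2.0 CPM in oxaliplatin and 1.87 CPM in vehicle fat (Col9a2, Col19a1, Col22a1, Col25a1 and Col26a1). In hypothalamus, where Col9a1 and Col10a1 were not tested, they reached 0.765 CPM with oxaliplatin and 0.288 CPM with vehicle.

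Libraries held 22.4 to 32.2 M counts (M, mega) in oxaliplatin muscle and 27.3 to 31.2 M in vehicle muscle, and 16.5 to 18.0 M in oxaliplatin fat and 16.9 to 22.7 M in vehicle fat. Every oxaliplatin hypothalamus library, at 23.6 to 26.4 M, was shallower than every vehicle hypothalamus library, at 27.3 to 28.5 M. The following 3 libraries stand apart or carry labels in conflict. The muscle library titled oxaliplatin mouse 5 carries vehicle as its treatment entry, against its title and the stated group sizes, and was kept with oxaliplatin. Oxaliplatin fat mouse 5 lay far above the other oxaliplatin fat libraries in most abundant chains. Vehicle fat mouse 4 held 129000 CPM of 8 skeletal muscle fibre genes, against 400 to 3320 CPM in oxaliplatin fat and 22.5 and 1390 CPM in the other vehicle fat libraries. The tissue labels fitted their markers otherwise: muscle fibre genes summed to 136000 to 181000 CPM in oxaliplatin and 136000 to 178000 CPM in vehicle muscle, 10 adipocyte genes to 15100 to 27000 CPM in oxaliplatin and 23400 to 30500 CPM in vehicle fat, and 7 neuron genes to 2220 to 3130 CPM in oxaliplatin and 2520 to 2690 CPM in vehicle hypothalamus.

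The promoter windows of 3 chains are shown because their genes carry the main patterns: the type IV pair in hypothalamus and fat, and the type I and type III chains in fat and muscle. Col4a1 and Col4a2 lie head to head on chromosome 8, Col4a1 from 11198423 to 11312826 on the minus strand and Col4a2 from 11312805 to 11449287 on the plus strand. The first exons share 22 bases, so the window of Col4a2 also spans the start of Col4a1. The windows of 300 bases around the RefSeq start (GRCm38.p6) are given 5′ to 3′ on the plus strand, which is the coding strand of all 3. They are chr8:11312555-11312854 for Col4a2, chr6:4505368-4505667 for Col1a2 and chr1:45311288-45311587 for Col3a1. Capitals mark the CCAAT box (CCAAT), the GC box (GGGCGG), the TATA box (TATAAA) and the SMAD element (CAGAC), each searched on both strands.
Col4a2: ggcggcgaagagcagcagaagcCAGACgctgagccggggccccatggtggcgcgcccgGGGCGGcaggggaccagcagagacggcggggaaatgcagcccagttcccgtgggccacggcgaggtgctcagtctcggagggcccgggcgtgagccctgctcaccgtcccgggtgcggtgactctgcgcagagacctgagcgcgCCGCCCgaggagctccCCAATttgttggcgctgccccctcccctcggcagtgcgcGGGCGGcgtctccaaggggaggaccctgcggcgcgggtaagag
Col1a2: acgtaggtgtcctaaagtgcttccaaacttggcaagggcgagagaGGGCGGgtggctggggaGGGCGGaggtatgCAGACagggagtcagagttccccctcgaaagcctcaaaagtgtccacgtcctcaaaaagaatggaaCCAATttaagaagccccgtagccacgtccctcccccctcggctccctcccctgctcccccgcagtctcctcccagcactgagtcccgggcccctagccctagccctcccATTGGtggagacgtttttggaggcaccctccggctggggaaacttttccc
Col3a1: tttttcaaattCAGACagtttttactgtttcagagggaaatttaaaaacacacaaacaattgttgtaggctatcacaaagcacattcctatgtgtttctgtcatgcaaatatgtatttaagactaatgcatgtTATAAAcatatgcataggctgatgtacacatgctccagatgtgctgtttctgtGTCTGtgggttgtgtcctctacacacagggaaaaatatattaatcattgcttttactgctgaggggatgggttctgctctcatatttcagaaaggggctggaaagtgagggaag

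In these windows the Col4a2 and Col1a2 promoters held CCAAT and GC boxes and no TATAAA, whereas that of Col3a1 held TATAAA and neither of the others. The matches do not overlap each other. Of 32851 promoter windows of the same length, 37.4% held the CCAAT box, 35.7% the GC box, 13.6% TATAAA and 49.6% the SMAD element. Of the 35 collagen chains with a window, 13 held the CCAAT box, 22 the GC box, 5 TATAAA and 20 the SMAD element. A match describes the letters only.

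In hypothalamus, the comparison asked which transcripts oxaliplatin changed in the brain region that controls feeding. Col4a1, the alpha 1 chain of the main basement membrane network, was the only collagen chain called there, and it rose 2.54-fold. It had 104, 98.5, 84.3 and 61.4 CPM in oxaliplatin mice 2 to 5, against 35.3, 33.9 and 33.4 CPM in vehicle mice 1, 2 and 4. Every oxaliplatin library lay above every vehicle library, and mouse 5 was the lowest of the oxaliplatin mice. The log2 change was 1.35 ± 0.17 (edgeR adjusted p = 0.0215), and means were 87.0 ± 19.0 CPM with oxaliplatin and 34.2 ± 0.998 CPM with vehicle (SD, n = 4 and 3). Over all genes tested in hypothalamus, 0.148% were called, all of them higher with oxaliplatin.

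Col4a2, the partner chain that winds with Col4a1 in the same trimer, had 105, 104, 84.9 and 63.4 CPM in oxaliplatin mice 2 to 5 and 53.4, 41.1 and 42.1 CPM in vehicle mice 1, 2 and 4. The arms did not overlap, with the same order of oxaliplatin mice as in Col4a1, but the change of 0.97 ± 0.18 was not called (edgeR adjusted p = 0.127). In the vehicle mice Col4a1 lay below Col4a2 in counts, at a mean log2 ratio of -0.40 ± 0.17, and in the oxaliplatin mice the ratio was -0.03 ± 0.03 (SD, n = 4 and 3). That difference of 0.37 gave an exact two-sided permutation p of 0.0571, the smallest that 4 against 3 libraries allow (adjusted p = 0.318 over 12 ratios). Exon overlaps touch little of this pair: the shared bases are 0.295% of the exon length of Col4a1.

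The remaining basement membrane chains of hypothalamus did not follow the pair. Over the 8 chains 4 had a log2 change above 0 and 4 below, with a median of -0.06, against 0.01 over all genes tested. Col4a5, an alpha chain of specialised basement membranes, had 2.62, 5.96, 3.77 and 5.80 CPM in oxaliplatin mice and 6.50, 6.80 and 7.38 CPM in vehicle mice (-0.60 ± 0.26, edgeR adjusted p = 0.479). Col15a1, a chain of the outer zone of basement membranes, had 1.73, 2.55, 3.88 and 5.27 CPM in oxaliplatin mice and 8.21, 4.97 and 5.98 CPM in vehicle mice, with 1 oxaliplatin value above the lowest vehicle value (-0.93 ± 0.34, adjusted p = 0.439). Col18a1, from which endostatin is cut, averaged 10.1 ± 1.39 CPM in oxaliplatin mice and 11.5 ± 1.44 CPM in vehicle mice. Col4a3, Col4a4 and Col4a6 had changes of 0.07, 0.21 and -0.40.

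**Figure D1:**
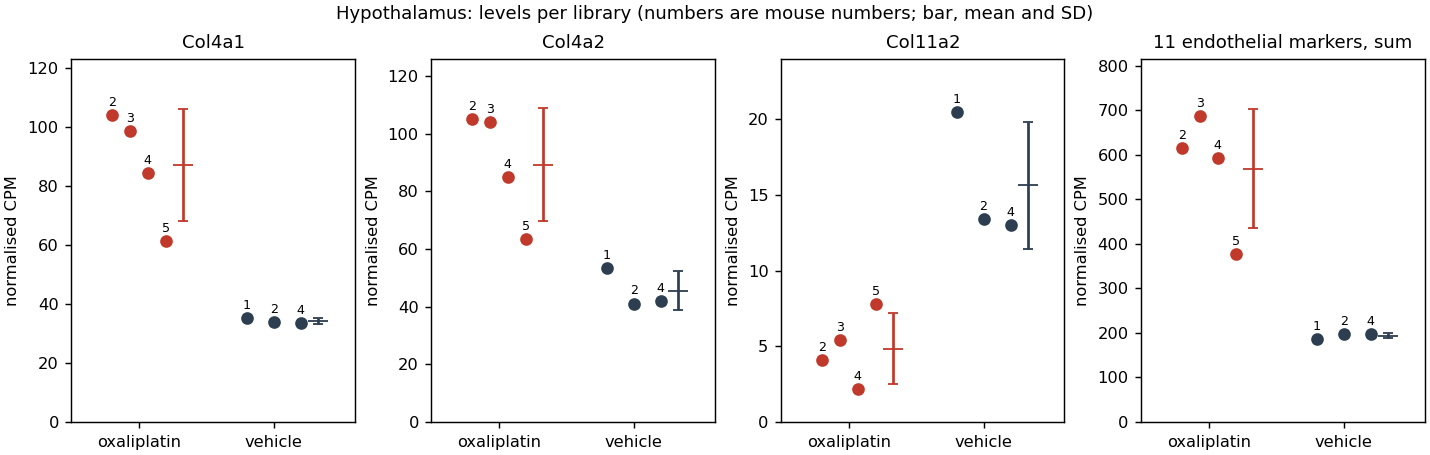
Levels in each hypothalamus library in normalised CPM (vertical axes, from 0) of Col4a1, Col4a2, Col11a2 and the sum of 11 endothelial marker genes, oxaliplatin left and vehicle right, with numbers for mice and bars for mean and SD. Col4a1 lies at 61.4 to 104 CPM with oxaliplatin and 33.4 to 35.3 CPM with vehicle, Col11a2 lies lower in every oxaliplatin library, and mouse 5 is the oxaliplatin library nearest to vehicle in each panel.

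Vessel cell genes moved with the type IV pair. Of 11 endothelial markers all had a log2 change above 0, with a median of 1.11, and their sum was 616, 688, 592 and 378 CPM in oxaliplatin mice 2 to 5, against 187, 197 and 197 CPM in vehicle mice 1, 2 and 4. Oxaliplatin mouse 5 had the smallest sum of its arm, as it had the lowest Col4a1. Vwf, the von Willebrand factor of endothelial cells (2.97 ± 0.30, edgeR adjusted p = 0.0193), Pecam1, a junction protein (1.49 ± 0.18, 0.0212), and Eng, a TGF-beta co-receptor (1.25 ± 0.12, 0.00738), were called and rose. Emcn, Tek, Tie1 and Egfl7, which also mark endothelium, changed by 0.02 to 0.25 and were not called, and no marker of the list was at 0. Of 10 pericyte and smooth muscle markers 2 were called and rose, the channel subunits Kcnj8 and Abcc9 of brain pericytes, and the list summed to 298 to 384 CPM with oxaliplatin and 267 to 298 CPM with vehicle. The part of vessel cells in the Col4a1 result was not tested.

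The call of Col4a1 depended on single libraries, while its size did not. Leaving out each library in turn gave log2 changes of 1.25 to 1.47. Over all alternatives its adjusted p ran from 3.42e-11 to 0.175. The call was lost in 1 fit over all tissues (adjusted p = 0.0774), without oxaliplatin mouse 3 (adjusted p = 0.0841) or 4 (0.117), and without vehicle mouse 1 (0.173), 2 (0.175) or 4 (0.173). Without oxaliplatin mouse 5 the call held (Col4a1 1.47 ± 0.10, edgeR adjusted p = 0.00038), and 4 further chains were called: Col4a2 rose (1.09 ± 0.13, 0.00465), while Col11a2 (-2.03 ± 0.34, 0.0261), Col9a3 (-0.97 ± 0.18, 0.0263) and Col14a1 (-1.10 ± 0.23, 0.0430) fell. In that fit 3.49% of all genes were called, 2.12% higher and 1.36% lower. With all libraries DESeq2 called Col4a1, Col4a2 and Col11a2, against 1.04% of all genes, and limma-voom called Col4a1.

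Of the 11 fibrillar chains of hypothalamus, 9 had a log2 change below 0, with a median of -0.61 and no call (2 chains had an unadjusted p under 0.05). Col11a2, the alpha 2 chain of type XI collagen, known from cartilage fibrils, had the largest change. Its gene spans bases 34039437 to 34066685 of chromosome 17 on the plus strand. It had 4.07, 5.39, 2.15 and 7.78 CPM in oxaliplatin mice 2 to 5 and 20.5, 13.4 and 13.0 CPM in vehicle mice 1, 2 and 4. Each oxaliplatin value lay below each vehicle value, and the change was -1.69 ± 0.38 (edgeR adjusted p = 0.256). Col27a1, another fibrillar chain of cartilage, had 0.644, 2.22, 1.81 and 1.56 CPM in oxaliplatin mice and 5.54, 3.17 and 2.25 CPM in vehicle mice (-1.23 ± 0.41, adjusted p = 0.388), again without overlap.

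The chains of type I and III collagen overlapped between the arms. Col1a1 had 8.13, 17.9, 10.7 and 19.3 CPM in oxaliplatin mice and 15.7, 26.6 and 25.3 CPM in vehicle mice (-0.69 ± 0.32, edgeR adjusted p = 0.521). Col1a2, which joins Col1a1 in type I, averaged 37.2 ± 13.2 CPM in oxaliplatin mice and 56.9 ± 16.6 CPM in vehicle mice, and Col3a1, the type III chain, 8.37 ± 5.98 CPM in oxaliplatin mice and 11.4 ± 2.58 CPM in vehicle mice (SD, n = 4 and 3). Markers of other sources of these chains did not move as 1 list: fibroblast markers summed to 632 to 707 CPM with oxaliplatin and 654 to 671 CPM with vehicle, and meningeal markers to 230 to 532 CPM with oxaliplatin and 173 to 299 CPM with vehicle. Of 12 tested fibroblast markers 9 had a log2 change above 0 and 3 below, at a median of 0.16. Among them 1 was called and rose, against 0.148% of all genes tested. The sum of 4 pituitary markers was 4.51 to 17.7 CPM with oxaliplatin and 23.4 to 41.2 CPM with vehicle, without overlap, with 3 of 3 tested members below 0. The part of tissue carried over in dissection in the Col11a2 and Col27a1 values was not tested.

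Among the other chains of hypothalamus the most abundant was Col25a1, a transmembrane collagen of neurons, with 96.9, 108, 83.4 and 102 CPM in oxaliplatin mice and 104, 99.8 and 100 CPM in vehicle mice. The arms overlapped and the change was -0.06 ± 0.10. Col23a1, also a transmembrane collagen, averaged 24.6 ± 4.83 CPM with oxaliplatin and 27.7 ± 3.98 CPM with vehicle. Type IX collagen sits on the surface of cartilage fibrils: its chain Col9a3 had 4.59, 4.28, 3.61 and 7.08 CPM in oxaliplatin mice and 9.61, 7.38 and 7.20 CPM in vehicle mice (-0.72 ± 0.23, edgeR adjusted p = 0.371), without overlap, while Col9a2 changed by 0.04 ± 0.17. In Col9a3 6.07% of the exon length is shared with Tcfl5 on the opposite strand. Col6a1 and Col6a2, chains of type VI, averaged 10.9 ± 5.24 and 11.7 ± 3.44 CPM with oxaliplatin and 13.3 ± 1.21 and 15.4 ± 3.19 CPM with vehicle. The 23 tested chains of this class had a median of -0.21, with 8 above 0 and 15 below.

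Over the 42 tested chains of hypothalamus the arms did not overlap in 7. All oxaliplatin libraries lay above in Col4a1 and Col4a2, against 5.58% of all genes tested, and below in Col11a2, Col27a1, Col4a5, Col9a3 and Col26a1, against 4.35%. Col4a5 and Col26a1 were picked out after their values were seen. An unadjusted p under 0.05 was found in 9 chains, against 10.2% of all genes.

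In fat, the comparison asked what oxaliplatin changed in a white adipose depot. Col1a1, Col1a2, Col3a1, Col5a1, Col5a2, Col6a1, Col6a2 and Col6a3 are abundant fibrillar and type VI chains of this tissue. All were far lower in oxaliplatin mice 2 to 4 than in any vehicle mouse, and above every vehicle mouse in oxaliplatin mouse 5. Col5a3, also an abundant fibrillar chain, shared the low levels of oxaliplatin mice 2 to 4 (74.6 to 152 CPM) but departed from the pattern in mouse 5. There its 498 CPM fell inside the vehicle range of 410 to 578 CPM. With all 7 libraries no chain was called, as no gene was (0% of 19870 genes tested, with 5178, or 26.1%, at an unadjusted p under 0.05), and 14 of 38 chains had an unadjusted p under 0.05. Of the tools run as alternatives, DESeq2 gave a p to 34 of the 43 chains and called 9, against 9.03% of all genes, and limma-voom called 0. Col1a1, Col1a2 and Col3a1 were among the chains to which DESeq2 gave no p. Col3a1, the type III chain of soft connective tissue, had 43.3, 74.1, 69.6 and 5170 CPM in oxaliplatin mice 2 to 5, against 2480, 3330 and 3070 CPM in vehicle mice 1, 2 and 4. Col1a1 had 33.4, 86.1, 82.4 and 2870 CPM in oxaliplatin mice and 1300, 1960 and 1690 CPM in vehicle mice. Mouse 5 exceeded every vehicle mouse in both genes, so the arms overlapped, with changes of -1.15 ± 1.62 for Col3a1 and -1.10 ± 1.44 for Col1a1 (edgeR adjusted p = 0.663 and 0.636).

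In Col1a2 and Col5a1 oxaliplatin mouse 5 was likewise the highest library and oxaliplatin mice 2 to 4 the lowest. Col1a2, the other chain of type I, had 76.1, 170, 123 and 2220 CPM in oxaliplatin mice 2 to 5 and 1210, 1690 and 1710 CPM in vehicle mice 1, 2 and 4. Col5a1, which starts and limits type I fibrils, had 56.1, 79.2, 74.1 and 636 CPM in oxaliplatin mice and 444, 531 and 547 CPM in vehicle mice. The sum over the fibrillar chains was 433, 599, 543 and 11800 CPM in oxaliplatin mice and 6320, 8290 and 7760 CPM in vehicle mice. Over the 11 chains 9 had a change below 0 and the median was -1.10, against 0.03 over all genes tested.

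Col11a2 was the exception among the fibrillar chains, with the smallest p of all chains in fat. It had 5.36, 4.89, 5.92 and 3.00 CPM in oxaliplatin mice 2 to 5 and 0.534, 0.693 and 1.38 CPM in vehicle mice 1, 2 and 4. Every oxaliplatin library lay above every vehicle library, including mouse 5, although the change of 2.45 ± 0.41 was not called (edgeR adjusted p = 0.0845). It was the only chain above without overlap, against 10.3% of all genes tested. Vehicle libraries alone would not have carried it through the count filter, as vehicle mouse 1 held 8 counts. Its place here is therefore tied to its level with oxaliplatin.

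**Figure D2:**
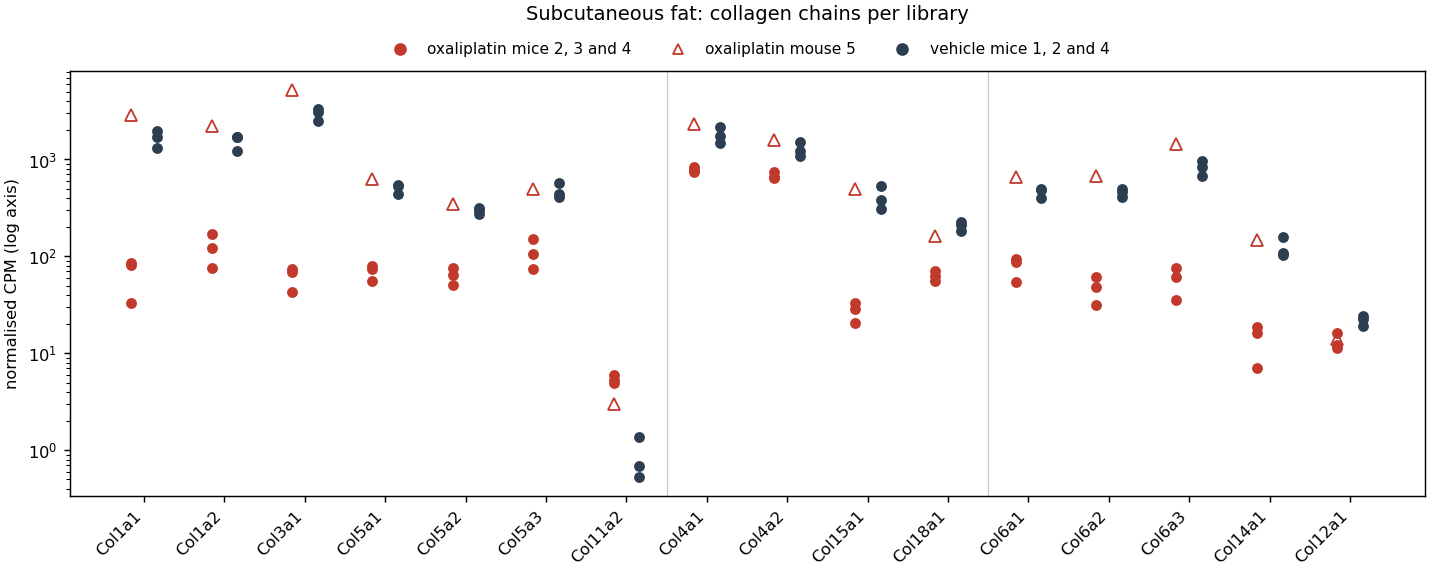
Normalised CPM (vertical log axis) of 16 collagen chains in each fat library, with oxaliplatin left (filled circles, mice 2 to 4, and open triangle, mouse 5) and vehicle right, and grey lines between fibrillar, basement membrane and other chains. Col3a1 lies at 43.3 to 74.1 CPM in oxaliplatin mice 2 to 4, 5170 CPM in oxaliplatin mouse 5 and 2480 to 3330 CPM in vehicle mice, and Col11a2 lies higher in all 4 oxaliplatin libraries.

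The type IV pair of fat was spread less over the libraries than Col1a1 and Col3a1. Col4a1 had 836, 741, 772 and 2300 CPM in oxaliplatin mice 2 to 5 and 2140, 1480 and 1750 CPM in vehicle mice 1, 2 and 4. Col4a2 had 739, 640, 662 and 1580 CPM in oxaliplatin mice and 1530, 1090 and 1230 CPM in vehicle mice. Mouse 5 was above all vehicle mice in both, and the changes were -0.62 ± 0.44 and -0.51 ± 0.36 (edgeR adjusted p = 0.387 and 0.379). Col15a1 had 29.0, 20.4, 33.4 and 497 CPM in oxaliplatin mice and 528, 381 and 311 CPM in vehicle mice (-1.49 ± 1.13). Col4a4, a chain of specialised basement membranes, had 7.09, 5.98, 4.95 and 13.2 CPM in oxaliplatin mice and 17.2, 16.5 and 21.6 CPM in vehicle mice, with no overlap (-1.24 ± 0.34, adjusted p = 0.118). All 8 chains of the class had a change below 0, at a median of -1.36.

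Among the other chains, the type VI chains Col6a1, Col6a2 and Col6a3 were high in mouse 5 and low in the other oxaliplatin mice. Col6a3, the large chain of type VI from which the adipokine endotrophin is cut, had 35.2, 60.9, 75.2 and 1430 CPM in oxaliplatin mice 2 to 5 and 672, 828 and 954 CPM in vehicle mice 1, 2 and 4. Col6a1 and Col6a2 were at 54.3 to 94.2 and 31.3 to 61.2 CPM in oxaliplatin mice 2 to 4, at 665 and 681 CPM in mouse 5, and at 401 to 495 and 413 to 501 CPM in vehicle mice. Col14a1, a fibril-associated collagen, had 7.09, 18.9, 16.3 and 149 CPM in oxaliplatin mice and 109, 157 and 104 CPM in vehicle mice. Col16a1, of the same group, averaged 11.8 ± 8.58 CPM with oxaliplatin and 26.5 ± 4.44 CPM with vehicle.

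A few chains of fat lay below vehicle in mouse 5 as well. Col12a1, a fibril-associated collagen, had 12.2, 16.3, 11.3 and 14.1 CPM in oxaliplatin mice 2 to 5 and 22.6, 19.1 and 24.4 CPM in vehicle mice 1, 2 and 4. Col8a1, a short network-forming chain, had 4.11, 3.90, 3.51 and 7.00 CPM in oxaliplatin mice and 16.3, 12.5 and 7.76 CPM in vehicle mice. In neither gene did the arms overlap, at changes of -0.71 ± 0.17 and -1.39 ± 0.33 (edgeR adjusted p = 0.114 for both). In all, 6 of 38 chains lay below without overlap, against 11.2% of all genes tested: Col4a4, Col12a1, Col8a1, Col7a1, and, picked out after their values were seen, Col18a1 and Col23a1. That share is near the background of this tissue.

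Col6a4, Col17a1 and the Col11a2 described above had the largest changes of fat, none of them called. Col17a1, a chain of the hemidesmosomes of skin, had 0.757, 2.14, 2.31 and 0.941 CPM in oxaliplatin mice and 35.4, 8.49 and 1.05 CPM in vehicle mice (-3.27 ± 1.01, edgeR adjusted p = 0.130). Col7a1, the chain of anchoring fibrils of skin, averaged 2.39 ± 0.472 CPM with oxaliplatin and 9.16 ± 8.68 CPM with vehicle. The sum of 8 epithelial markers was 14.5 to 56.3 CPM with oxaliplatin and 111, 87.9 and 10.8 CPM in vehicle mice 1, 2 and 4, the order of Col17a1 in the vehicle mice. Trp63, a transcription factor of basal epithelium, went the other way and made up most of the oxaliplatin sum, at a mean of 33.2 CPM with oxaliplatin and 9.21 CPM with vehicle (1.85 ± 0.44, edgeR adjusted p = 0.114). The keratins Krt5, Krt14, Krt8 and Krt15 were at 0 in some libraries of both arms, and the part of epithelium in the Col17a1 result was not tested. Col6a4 had 0, 1.92, 2.26 and 4.41 CPM in oxaliplatin mice and 0.134, 0.173 and 0.275 CPM in vehicle mice (3.40 ± 1.26, adjusted p = 0.157). It passed the count filter through oxaliplatin libraries alone, so its place among the largest changes is tied to that filter.

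Oxaliplatin mouse 5 decided the fat result. Each of the 7 libraries was left out in turn, and without oxaliplatin mouse 5 edgeR called 23 of 37 tested chains, 22 lower and 1 higher, against 0 without any other library. In that fit of 3 against 3 libraries 25.5% of all genes tested were called, 13.5% lower and 12.0% higher. Of the fibrillar chains 6 of 11 fell and Col11a2 rose, of the basement membrane chains 7 of 8 fell, and of the other chains 9 of 18 fell. Class medians were -2.10, -1.73 and -1.52, against 0.01 over all genes. Col3a1 had the largest called change (-5.57 ± 0.30, edgeR adjusted p = 0.0002), followed by Col1a1 (-4.62 ± 0.42, 0.000984), Col15a1 (-3.88 ± 0.28, 0.000506) and Col6a3 (-3.84 ± 0.32, 0.000666). Col4a1 (-1.19 ± 0.19, 0.00516) and Col4a2 (-0.92 ± 0.18, 0.0110) fell less, and Col11a2 rose by 2.61 ± 0.36 (0.00321). Leaving out a library because of its values makes this fit a description of the other 6 libraries.

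Most fibroblast and adipocyte markers changed in the direction of the collagen chains of fat. Of 14 fibroblast markers 13 had a change below 0, at a median of -1.01 with none called, and they summed to 2980, 3970, 3350 and 11700 CPM in oxaliplatin mice 2 to 5 and 9970, 13300 and 11100 CPM in vehicle mice 1, 2 and 4. The 10 adipocyte markers summed to 17500, 17700, 15100 and 27000 CPM in oxaliplatin mice and 30500, 25400 and 23400 CPM in vehicle mice. In both sums mouse 5 was the highest oxaliplatin library and lay within the vehicle range. Of the adipocyte markers 9 had a change below 0, at a median of -1.03 with none called, and Adipoq, Cidec and Retn changed by only -0.35, -0.39 and -0.37. Cfd, the largest with oxaliplatin, rose, at 9480 CPM with oxaliplatin and 5190 CPM with vehicle (0.87 ± 0.25, edgeR adjusted p = 0.122). Endothelial markers summed to 1480 to 1690 CPM with oxaliplatin and 1110 to 1570 CPM with vehicle. No fibroblast or adipocyte marker was at 0, and the part of these cells in the collagen values was not tested.

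In muscle, the comparison asked which transcripts oxaliplatin changed in a limb muscle. Of 33 tested chains 29 had a log2 change below 0, but the arms overlapped in nearly all of them and no chain was called by edgeR, against 0.163% of all genes tested, 0.0475% of them lower. DESeq2 called 1 chain, Col6a2, against 1.20% of all genes, and limma-voom 0. Col1a1 had 5.97, 118, 20.8, 39.7 and 18.4 CPM in oxaliplatin mice 1 to 5, against 71.1, 96.1, 260 and 279 CPM in vehicle mice 1 to 4. Oxaliplatin mouse 2 lay within the vehicle range and the other oxaliplatin mice below it, and the change was -2.12 ± 0.84 (edgeR adjusted p = 0.462). Col1a2 had 9.94, 100, 33.4, 46.0 and 23.5 CPM in oxaliplatin mice and 64.0, 83.5, 209 and 269 CPM in vehicle mice (-1.88 ± 0.69, adjusted p = 0.424). Col3a1 had 4.76, 44.4, 18.0, 23.3 and 9.21 CPM in oxaliplatin mice and 33.2, 45.5, 80.4 and 91.4 CPM in vehicle mice (-1.66 ± 0.62, adjusted p = 0.430).

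All 10 tested fibrillar chains of muscle had a change below 0, with a median of -1.30, against -0.01 over all genes. Their changes ran from -0.52 in Col5a3 to -2.12 in Col1a1. Col5a2, of type V, averaged 6.66 ± 3.17 CPM with oxaliplatin and 12.6 ± 6.79 CPM with vehicle. Of the 33 tested chains 20 had an unadjusted p under 0.05, against 9.59% of all genes tested. The chains share their libraries, so these are not separate observations.

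Basement membrane chains of muscle differed among themselves. Col4a1 had 25.5, 28.9, 28.3, 28.9 and 18.8 CPM in oxaliplatin mice 1 to 5 and 19.9, 19.2, 23.1 and 23.7 CPM in vehicle mice 1 to 4, so 4 of 5 oxaliplatin mice lay above all vehicle mice (0.28 ± 0.14, edgeR adjusted p = 0.571). Col4a2 averaged 16.4 ± 2.94 CPM with oxaliplatin and 14.2 ± 0.925 CPM with vehicle. Col4a3, which muscle carries at the neuromuscular junction, had 3.28, 5.40, 4.55, 4.07 and 3.74 CPM in oxaliplatin mice and 5.62, 4.85, 6.85 and 7.55 CPM in vehicle mice (-0.57 ± 0.19, adjusted p = 0.311). Col15a1, chosen after its values were seen, was the only chain without overlap: it had 0.755, 3.14, 2.95, 2.84 and 0.861 CPM in oxaliplatin mice and 4.92, 4.72, 3.28 and 5.32 CPM in vehicle mice, and 1.70% of all genes tested lay below in this way. Its change was -1.13 ± 0.40 (adjusted p = 0.362).

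The other chains of muscle included the smallest p of the family. Col22a1, a collagen of the junction between muscle and tendon, had 0.525, 2.58, 1.10, 1.01 and 1.49 CPM in oxaliplatin mice 1 to 5 and 1.76, 2.24, 5.83 and 4.64 CPM in vehicle mice 1 to 4 (-1.44 ± 0.44, edgeR adjusted p = 0.281). Col12a1, a fibril-associated chain of tendon and muscle sheath, had 1.02, 2.54, 0.450, 3.25 and 2.17 CPM in oxaliplatin mice and 2.17, 4.72, 7.51 and 12.1 CPM in vehicle mice (-1.80 ± 0.56, adjusted p = 0.311). Vehicle mice 3 and 4 were the highest libraries in both genes. Col6a1, Col6a2 and Col6a3 of type VI, which links muscle fibres to their surroundings, averaged 19.5 ± 9.76, 5.55 ± 3.19 and 8.69 ± 4.16 CPM with oxaliplatin and 40.5 ± 20.3, 14.1 ± 4.83 and 12.5 ± 4.52 CPM with vehicle. Col8a1 and Col8a2, short network chains, had changes of -0.68 ± 0.23 and -1.91 ± 0.63, and Col19a1, a chain made by developing muscle, -1.41 ± 0.47 (adjusted p = 0.327, 0.316 and 0.325). Only Col23a1 (0.70) and Col20a1 (0.61) of the 16 tested chains of the class had a change above 0, and the class median was -0.83, or -0.40 without vehicle mouse 4.

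**Figure D3:**
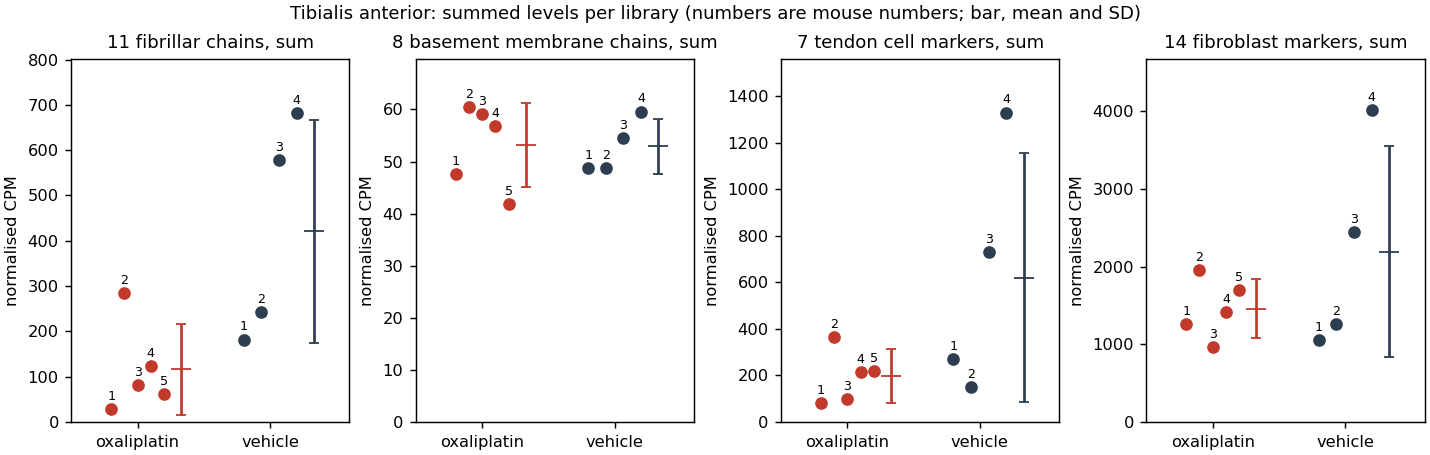
Summed normalised CPM (vertical axes, from 0) in each muscle library of 11 fibrillar chains, 8 basement membrane chains, 7 tendon cell markers and 14 fibroblast markers, oxaliplatin left and vehicle right, with numbers for mice and bars for mean and SD. Vehicle mice 3 and 4 are the highest libraries for fibrillar chains (579 and 682 CPM), tendon cell markers (730 and 1330 CPM) and fibroblast markers (2440 and 4010 CPM), while basement membrane chains overlap closely.

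Most connective tissue markers of muscle had changes below 0, as the fibrillar chains did. The fibrillar sum was 29.0, 284, 82.5, 124 and 61.8 CPM in oxaliplatin mice 1 to 5 and 182, 242, 579 and 682 CPM in vehicle mice 1 to 4. The 7 tendon cell markers summed to 79.3, 367, 98.7, 216 and 219 CPM in oxaliplatin mice and 271, 152, 730 and 1330 CPM in vehicle mice, with 6 of 7 changes below 0 and a median of -1.68. The 14 fibroblast markers summed to 1260, 1950, 967, 1410 and 1700 CPM in oxaliplatin mice and 1050, 1260, 2440 and 4010 CPM in vehicle mice, with 13 changes below 0 and a median of -0.49. Oxaliplatin mouse 1 was lowest and oxaliplatin mouse 2 highest of their arm in fibrillar chains and tendon markers. The fibroblast sum followed the fibrillar chains less: oxaliplatin mouse 3 was lowest, and vehicle mice 1 and 2 lay within the oxaliplatin range. Ly6a was the fibroblast marker that rose (0.50 ± 0.12, edgeR adjusted p = 0.137). No marker of either list was called or at 0 in any library. Most vessel cell markers of muscle had changes above 0. The 11 endothelial markers summed to 343 to 381 CPM with oxaliplatin and 237 to 302 CPM with vehicle. Of these, 10 had a change above 0 and 1 below, at a median of 0.33. Among 10 pericyte and smooth muscle markers 9 had a change above 0. In each of these 2 lists 1 marker was called and rose, against 0.163% of all genes tested. The part of tendon and fascia taken with the muscle was not tested. The median change of the tested chains, -0.90 with all libraries, was -0.57 without vehicle mouse 4 and -0.67 with mouse 5 set to vehicle, where 0 of 14737 genes were called (701 at an unadjusted p under 0.05).

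Beyond the chains, edgeR called no gene of the collagen pathway lists in any tissue: 0 of 100 tested in muscle, 0 of 104 in fat and 0 of 104 in hypothalamus, against 0.163%, 0% and 0.148% of all genes. An unadjusted p under 0.05 was found in 21 of the muscle genes, 23 of the fat genes and 17 of the hypothalamus genes, against 9.59%, 26.1% and 10.2% of all genes tested, so that the fat count is below its background. In hypothalamus 11 of 16 basement membrane partners had a change above 0. Nid2, a linker of laminin and type IV collagen, averaged 11.9 CPM with oxaliplatin and 4.30 CPM with vehicle (1.47 ± 0.25, edgeR adjusted p = 0.0779), and Hspg2, the proteoglycan perlecan, 52.0 CPM with oxaliplatin and 35.1 CPM with vehicle (0.57 ± 0.19, 0.393). Itga1, the alpha subunit of a type IV collagen receptor, averaged 21.5 CPM with oxaliplatin and 14.4 CPM with vehicle (0.58 ± 0.10, 0.0859). Oxaliplatin libraries lay above vehicle libraries without overlap in Nid2 and Itga1, each picked from its list by smallest p, and in 5.58% of all genes tested.

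In fat, Ddr1, a receptor kinase for collagen, averaged 21.6 CPM with oxaliplatin and 81.3 CPM with vehicle (-1.92 ± 0.43, edgeR adjusted p = 0.114), and Mmp14, a membrane collagenase, 153 CPM with oxaliplatin and 75.5 CPM with vehicle (1.01 ± 0.25, 0.114). Neither gene, each picked from its list by smallest p, overlapped between the arms. Over all genes tested in fat, 11.2% lay below and 10.3% above without overlap. Of 20 tested genes of chain modification and folding 14 had a change below 0, at a median of -0.20, which is nearer to 0 than the -1.08 of the chains.

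In muscle, P3h4, a partner of the lysine hydroxylases that modify collagen, averaged 0.928 CPM with oxaliplatin and 2.18 CPM with vehicle without overlap (-1.23 ± 0.25, edgeR adjusted p = 0.0792). It was picked from its list by smallest p, and 1.70% of all genes tested lay below in this way. Mrc2, a receptor that takes up collagen fragments, averaged 1.42 CPM with oxaliplatin and 3.60 CPM with vehicle (-1.35 ± 0.31, 0.121), and Ctsk, a protease that degrades collagen, 2.52 CPM with oxaliplatin and 8.00 CPM with vehicle (-1.68 ± 0.44, 0.212). Fibril partners had 19 of 20 changes below 0, at a median of -0.67. Eln, which encodes elastin, had the change above 0 of smallest p in that list, at 7.46 CPM with oxaliplatin and 4.02 CPM with vehicle (0.89 ± 0.28, 0.287), but that change was 0.60 without oxaliplatin mouse 5, whose labels conflict, and 0.08 with it set to vehicle.

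The makeup of the collagen pool was summed as shares of all collagen counts in a library. In hypothalamus the basement membrane share was 31.9% to 46.9% in oxaliplatin mice and 21.3% to 24.9% in vehicle mice, and the fibrillar share 11.8% to 22.0% in oxaliplatin mice and 24.5% to 28.8% in vehicle mice, both without overlap. In fat the basement membrane share was 23.5% to 73.0% with oxaliplatin, with mouse 5 the lowest, and 23.7% to 35.5% with vehicle. In muscle it was 14.1% to 43.1% with oxaliplatin and 6.68% to 16.9% with vehicle, and the arms overlapped. These shares follow from the counts of the chains above and were not tested.

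**Figure D4:**
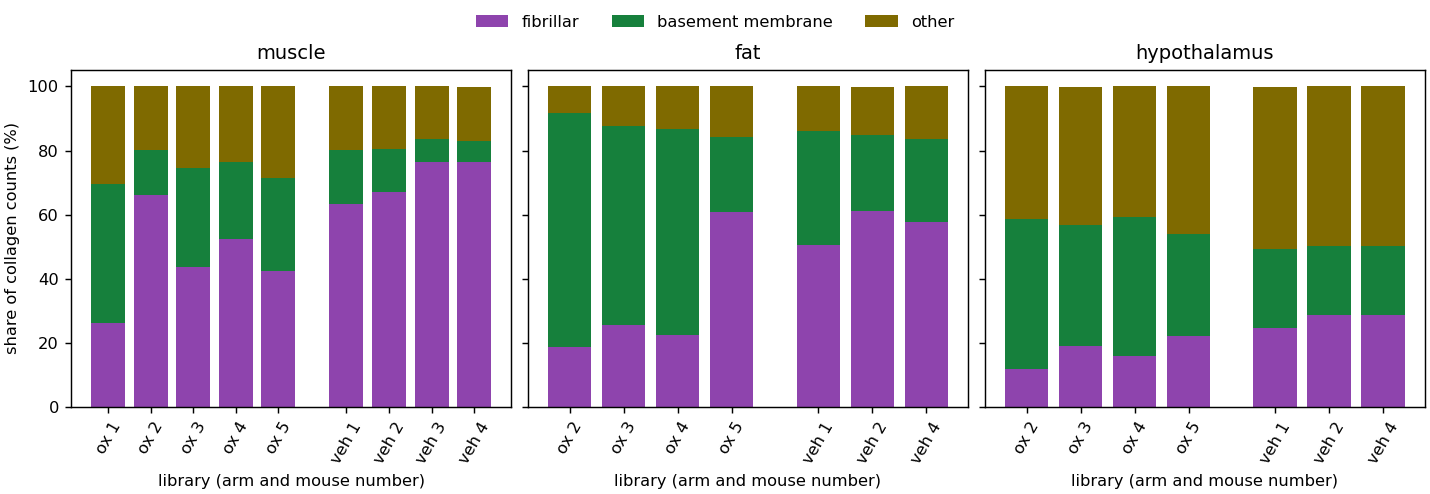
Share of collagen counts (vertical axis, percent) taken by fibrillar, basement membrane and other chains in each library, with oxaliplatin (ox) libraries left of vehicle (veh) libraries in each tissue. In hypothalamus the basement membrane share is 31.9% to 46.9% with oxaliplatin and 21.3% to 24.9% with vehicle, and in fat oxaliplatin mouse 5, at 23.5%, lies beside the lowest vehicle mouse, at 23.7%.

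Per kilobase of exon, the leading chains differed between tissues. In muscle the highest mean level per length was that of Col1a1, at 6.18 ± 6.84 CPM per kilobase with oxaliplatin and 26.9 ± 16.5 with vehicle. Its oxaliplatin mean rests largely on mouse 2, at 118 CPM against 5.97 to 39.7 CPM in the other oxaliplatin mice. In oxaliplatin mouse 1 Col1a1 did not lead: it had 5.97 CPM, against 25.5 CPM of Col4a1, whose exon length is greater. In fat Col3a1 had the highest mean in vehicle mice (302 ± 44.1 CPM per kilobase, against 252 ± 50.4 for Col1a1 and 239 ± 44.5 for Col4a1), whereas Col4a1 had the highest oxaliplatin mean (156 ± 102). The chains share libraries, so these SDs between mice do not compare chains, and the order was not tested. In hypothalamus Col4a2 and Col4a1 led with oxaliplatin at 13.5 ± 2.93 and 11.7 ± 2.55 CPM per kilobase, and Col25a1 (7.84 ± 0.187) and Col4a2 (6.88 ± 1.03) led with vehicle. Levels were set across tissues in order only, since the tables were normalised separately and muscle libraries were made with another kit.

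Ratios were tested for chains that share a trimer and for Col3a1 to Col1a1, chains of different collagens. Col1a1 and Col1a2 form type I collagen together, and in muscle their mean log2 ratio of counts was -0.35 ± 0.39 in oxaliplatin mice and 0.18 ± 0.11 in vehicle mice (SD, n = 5 and 4), a difference of -0.53 with an exact two-sided permutation p of 0.0635 and a smallest possible p of 0.0159. In fat the same ratio was -0.59 ± 0.69 with oxaliplatin and 0.10 ± 0.12 with vehicle (exact permutation p = 0.229, n = 4 and 3). None of 12 ratios passed after adjustment, the smallest adjusted p being 0.318, and in fat and hypothalamus the design cannot reach 0.05.

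Differences in effect between tissues were tested for each pair of tissues in 1 fit over the libraries of both. By edgeR Col11a2 was the only chain called: its effect in fat exceeded that in hypothalamus by 4.13 ± 0.60 on the log2 scale (2.45 in fat and -1.69 in hypothalamus, edgeR adjusted p = 0.0183), against 0.311% of all genes tested. An unadjusted p under 0.05 was found in 11 of 43 chains for that pair of tissues, against 19.7% of all genes. All 4 oxaliplatin libraries lay above vehicle in fat and all 4 below in hypothalamus. The call was lost without hypothalamus vehicle mouse 1, 2 or 4, and with the mouse number as a block (adjusted p = 0.0913). The effect on Col4a1 in hypothalamus exceeded that in muscle by 1.03 ± 0.22 (1.35 in hypothalamus and 0.28 in muscle, adjusted p = 0.0888), and the effect in fat minus that in hypothalamus was -1.96 ± 0.51 (adjusted p = 0.0903). The libraries of both tissues come from the same mouse numbers, and with the animal as a random effect that difference was called (limma-voom, -2.11, adjusted p = 0.0493). By edgeR no chain differed between fat and muscle or between hypothalamus and muscle after adjustment, where 0.239% and 0.0689% of all genes did (6 of 38 and 7 of 41 chains had an unadjusted p under 0.05, against 17.0% and 9.33% of all genes), and limma-voom with the animal as a random effect called 0 in both.

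**Figure D5:**
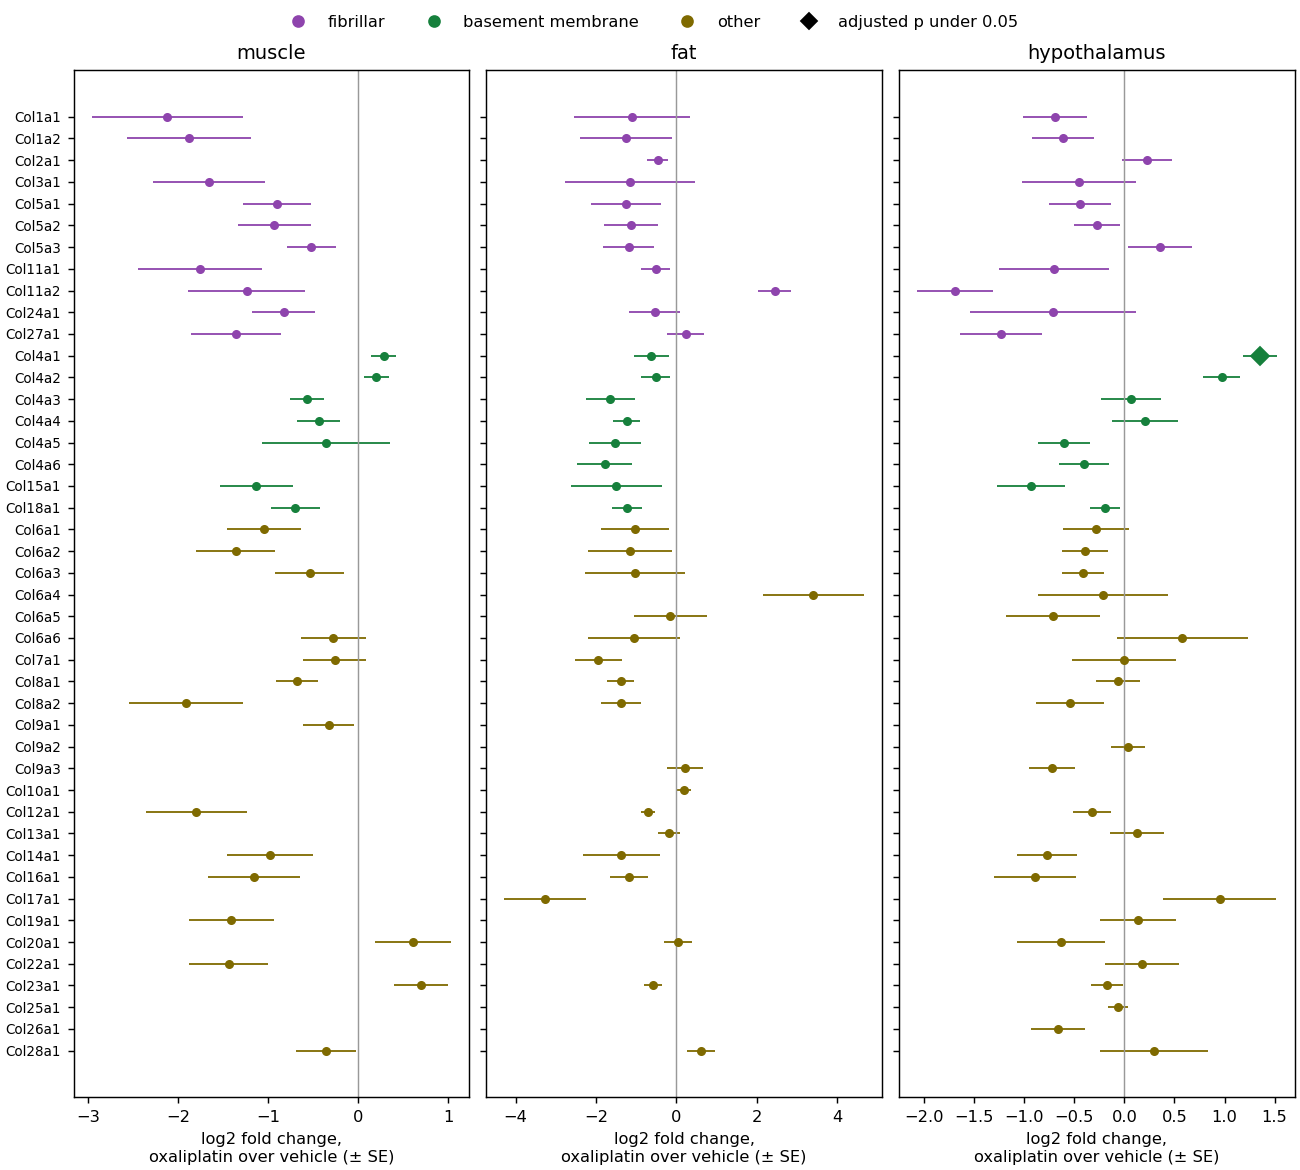
Log2 fold change of oxaliplatin over vehicle ± SE (horizontal axes, with a range of their own in each tissue) of every tested collagen chain, coloured by class, with a diamond for an adjusted p under 0.05. Col4a1 in hypothalamus is the only diamond (1.35), all 10 fibrillar chains of muscle lie below 0, and Col11a2 lies at 2.45 in fat and -1.69 in hypothalamus.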

How the data were processed

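RNA sequencing gave 23 libraries from 3 mouse tissues. Values in the deposited tables are expected counts per gene. They are labelled raw counts and were taken as not scaled between libraries. Those not whole were 45.7% of muscle, 41.4% of fat and 49.1% of hypothalamus values, which alone does not show whether they were scaled. Per the submitters' processing notes STAR 2.5.1a, Partek and DESeq2 were used, with no role given. Per the labels' protocols, muscle used a SMARTer kit and the other tissues a kit that removes ribosomal RNA, so levels were not tested across tissues. No build is named in the sources used here. Gene starts equalled those of GENCODE M21 (GRCm38) for 99.4% to 99.5% of rows, and coordinates are on that build. Counting by strand is not stated; exons shared with another gene made up at most 6.07% of the exon length of a chain.

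Expected counts were rounded to whole numbers. Each tissue was fitted alone in edgeR 4.0.16 (R 4.3.3): filterByExpr with a minimum count of 10 and total of 15, TMM factors, the robust quasi-likelihood F test and Benjamini-Hochberg adjustment over all genes tested, with 0.05 as the threshold. CPM values are divided by the TMM factors, and SE is the log2 fold change over the square root of F. Differences between tissues were tested as an interaction. Ratios used a pseudocount of 0.5 and exact permutation tests. The fit was tested on simulated data with the same spread for every gene and no outlying library. That setting does not cover fat with oxaliplatin mouse 5. No pair of libraries of a group was a copy (lowest chi-square per degree of freedom 7.37 over 34 pairs).

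The members, classes, pathway and marker lists, and tests were chosen with earlier results of these data known. Text names chains that were called, the 4 fibrillar, 3 basement membrane and 5 other chains of highest mean CPM per tissue, the 5 of smallest p, the 3 of largest change, those of tested pairs, and 2 genes per pathway list, of which some are not reported here. Promoter windows are from RefSeq (GRCm38.p6), which matched 35 of 44 chains. Alternatives were DESeq2 1.42.0, limma-voom (limma 3.58.1), DESeq2 size factors and upper quartile factors, no filter, a mean of at least 1 CPM, a single fit of the 3 tissues, a block for mouse number, a random effect for animal, leaving out libraries singly, and muscle mouse 5 set to vehicle.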

Additional observations from a re-analysis of the deposited data

Results flagged for a closer look

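In fat, 15 of the 22 sets of oxaliplatin values checked held a library far from the other 3 by Dixon's criterion, and in all 15 it was mouse 5, the highest. Over all arms of at least 4 libraries 77 sets were checked and these were the only ones. For independent sets of normal values chance flags about 1 in 20. Many chains checked were picked by mean level over all libraries, which mouse 5 raises in fat, so that rate does not apply to these sets. The vehicle arms of fat and hypothalamus, of 3 libraries each, were too small to be checked. The chains share libraries, so the 15 are not separate observations. Mouse 5 had 5170 CPM of Col3a1, against 43.3 to 74.1 CPM in the other oxaliplatin mice. It had 2870 CPM of Col1a1 (33.4 to 86.1 in the others), 2220 CPM of Col1a2 (76.1 to 170) and 636 CPM of Col5a1 (56.1 to 79.2). Among basement membrane chains it had 2300 CPM of Col4a1 (741 to 836), 1580 CPM of Col4a2 (640 to 739) and 497 CPM of Col15a1 (20.4 to 33.4).

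Among type VI and fibril-associated chains mouse 5 had 1430 CPM of Col6a3 (35.2 to 75.2 in the others), 665 CPM of Col6a1 (54.3 to 94.2), 681 CPM of Col6a2 (31.3 to 61.2), 149 CPM of Col14a1 (7.09 to 18.9) and 24.6 CPM of Col16a1 (6.73 to 8.46). The sums were 11800 CPM of fibrillar chains (433 to 599), 4570 CPM of basement membrane chains (1470 to 1680) and 3050 CPM of other chains (189 to 323). The sums of fibroblast and adipocyte markers were also highest in mouse 5 of the oxaliplatin fat libraries, and the part of these cells was not tested.

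The effect on Col11a2 differed between tissues: that in fat exceeded that in hypothalamus by 4.13 ± 0.60 on the log2 scale (edgeR adjusted p = 0.0183), with all 4 oxaliplatin libraries above vehicle in fat and all 4 below in hypothalamus. The call was lost without hypothalamus vehicle mouse 1, 2 or 4 (adjusted p = 0.0659, 0.0711 and 0.0575, against 0.000485 to 0.0913 over all alternatives) and with the mouse number as a block (0.0913).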

How the results depend on the processing

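DESeq2, which also tests without the edgeR filter, called 1 chain in muscle, 9 in fat and 3 in hypothalamus, against 1.20%, 9.03% and 1.04% of all genes, while limma-voom called 0, 0 and 1. The single fit over all tissues called 1, 9 and 0, against 0, 0 and 1 by edgeR per tissue. Of the 18502 genes in that fit, 91 were called in muscle, 2909 in fat and 55 in hypothalamus. Leaving out each library in turn gave 0 in muscle, 0 to 23 in fat and 0 to 5 in hypothalamus. The fat and hypothalamus counts were highest without oxaliplatin mouse 5, where 25.5% and 3.49% of all genes were called. For differences between tissues the same step gave 0 to 12 chains (fat minus muscle), 0 to 1 (hypothalamus minus muscle) and 0 to 21 (fat minus hypothalamus). The highest of these came without oxaliplatin mouse 5 of fat, of hypothalamus and of fat. Those fits called 1626 of 18817, 110 of 17357 and 3151 of 20789 genes. Limma-voom with the animal as a random effect called 2 chains in fat minus hypothalamus (Col11a2 and Col4a1), against 264 of 20892 genes. With DESeq2 size factors, upper quartile factors, no filter and a mean of at least 1 CPM, the counts per tissue were unchanged. The Col9a2 change in hypothalamus, 0.04, ran from -0.12 to 0.13 when libraries were left out, and was -0.12 without oxaliplatin mouse 3, 0 without oxaliplatin mouse 4 and -0.02 without vehicle mouse 4. The difference of Col3a1 between fat and muscle, 0.51, was -1.93 with the animal as a random effect, -3.39 with the mouse number as a block and ran from -3.92 (without fat oxaliplatin mouse 5) to 1.04 when libraries were left out. Class medians also moved when libraries were left out: from -0.83 to -0.40 for other chains of muscle (without vehicle mouse 4), from -0.61 to -0.38 for fibrillar chains of hypothalamus (without oxaliplatin mouse 2), and from -0.21 to -0.46 for other chains of hypothalamus (without oxaliplatin mouse 3). The basement membrane median of hypothalamus, -0.06, was 0.03 without oxaliplatin mouse 2. In fat the fibrillar median, -1.10, ran from -2.10 (without oxaliplatin mouse 5) to -0.71 (without oxaliplatin mouse 2), and that of other chains, -1.03, was -0.61 without vehicle mouse 4. The cause of these shifts was not tested.

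Same-numbered mice of the 2 arms did not deviate together (correlations of -0.28 to 0.17 over 8 pairs). Arms of 3 to 5 libraries are too small for these correlations to exclude a pairing by number. With the mouse number as a replicate block the calls were 0 chains in muscle, 0 in fat, 1 in hypothalamus (Col4a1) and 0 in the differences between tissues, where the Col11a2 difference was 4.19 (edgeR adjusted p = 0.0913). With 3 to 5 libraries in an arm, low chains carry few counts: Col11a2 had 3 to 48 counts per muscle library and 8 to 123 per fat library.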

Other observations

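Fibroblast genes of fat differed in how far they followed the fibrillar chains. Dpt, a matrix protein that binds decorin, ranged from 22.7 to 405 CPM in oxaliplatin and from 520 to 604 CPM in vehicle mice. Pi16, a marker of fibroblast progenitors, ranged from 6.76 to 163 CPM in oxaliplatin and from 188 to 352 CPM in vehicle mice. In both genes every oxaliplatin library lay below every vehicle library. They were the only 2 of 14 fibroblast markers to do so, against 11.2% of all genes tested, and that share is near the background. Dcn, the fibril-binding proteoglycan decorin, ranged from 440 to 705 CPM in oxaliplatin and 411 to 583 CPM in vehicle mice, and Pdgfra, a receptor that marks fibroblasts and adipocyte progenitors, from 90.3 to 167 CPM in oxaliplatin and 95.6 to 163 CPM in vehicle mice. None of these genes was called (edgeR adjusted p = 0.233 for Dpt, 0.232 for Pi16, 0.583 for Dcn and 0.778 for Pdgfra).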
